A study of Mus musculus with 6 samples.

Results

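Integrins are the receptors by which cells hold the extracellular matrix, and focal adhesion adaptors tie their cytoplasmic tails to the actin cytoskeleton. The 41 genes described here were chosen by name, as every integrin α and β gene on the array and 15 adaptor genes, and they are covered by 63 of the 55681 probes. The rule reads names only. RNA of 2 cell populations sorted from the prostates of 6-day-old male FVB/N mice was hybridised to 6 arrays, 3 LSC GFP+ and 3 LSC GFP-, without treatment. All the mice carried the transgene Tg 11.5kb-GFP, in which the promoter of the stem cell SHIP isoform, s-SHIP, drives GFP. Both populations were gated as Lin- Sca-1+ CD49f+ (LSC) cells and then parted by GFP, and Lin stands for Ter119, CD31 and CD45. CD49f is integrin α6, the product of Itga6, so both populations were selected for one member of the set. The promoter also labels vascular smooth muscle cells, which the study describes as low in Sca-1 and CD49f.

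An integrin is a dimer of 1 α and 1 β subunit, and the pair decides the ligand: α3β1 and α6β4 bind laminins, α1β1 binds collagens, and the αv integrins bind proteins with the RGD tripeptide, latent TGF-β among them. Talins and kindlins bind the β tail and switch the receptor to its binding state, and Ilk, Pinch, parvin, paxillin, vinculin and Fak assemble on that site. In basal epithelial cells, α6β4 anchors cells in hemidesmosomes and α3β1 in focal contacts with the basement membrane.

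The docking site for talin and kindlin can be read from the array itself. The brightest Itgb1 probe crosses an exon junction in the part of the gene that encodes the tail, at chr8:131250081-131255976 on the plus strand of mm9, and holds the codons of 2 NPxY motifs, to which these adaptors bind. They are in capitals, in the reading frame without a stop, and the probe is shown because the adaptors and the β subunits meet at this stretch:
Itgb1 probe: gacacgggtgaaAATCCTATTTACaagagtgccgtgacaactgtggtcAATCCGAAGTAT
Probes of Itga1 and Itgb6 also cross junctions and are shown because their signals were lower in LSC GFP+ cells in all 3 replicate numbers. They lie at chr13:115756765-115758419 and chr2:60438632-60443247, both on the minus strand of mm9. Within the probes no full set of NPxY codons lies in a frame without a stop. The Itgb6 probe ends on aat, a codon for N, so a motif that began there would be cut off, and the bases after it were not read:
Itga1 probe: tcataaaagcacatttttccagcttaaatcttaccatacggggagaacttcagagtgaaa
Itgb6 probe: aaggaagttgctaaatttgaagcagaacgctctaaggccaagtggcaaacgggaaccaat

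Of the 41 genes, 31 could be tested, since a probe of theirs was marked well above background on every array of one population or both, and 45 of the 63 probes entered the test. At the brightest probe of each gene, 6 genes passed an unadjusted p of 0.05 with more signal in LSC GFP+ cells, namely Itga3, Itgav, Itga9, Itgb5, Itgb8 and Fermt1, and 1, Itga1, was lower. Over all genes tested by the same rule, 7.67% were called, 3.39% higher and 4.29% lower. By probe, 6 members were called higher and 2 lower, or 17.8% of those tested against 7.9% of all 37005 probes tested (3.38% higher and 4.53% lower). No member passed 0.05 after Benjamini-Hochberg adjustment in limma, where 1 probe of the whole array did, or 0.0027%, and no gene at its brightest probe (0%). Leaving out LSC GFP+ replicate 2 left 2 member probes called higher and 1 lower, leaving out LSC GFP- replicate 3 left 3 higher, and leaving out LSC GFP- replicate 1 left 1 lower. Integrin genes held 6 of the 7 calls, 5 higher and 1 lower among 18 tested, and adaptor genes held 1 among 13. The median log2 difference was 0.19 for the integrin genes and 0.03 for the adaptors, beside -0.01 for all genes. The populations did not overlap for 7 member genes, the same 7 that were called, beside 11.9% of all genes, and for 9 member probes, beside 12.3% of all probes. All values below are log2 signals relative to the 75th percentile of their array, and differences are LSC GFP+ minus LSC GFP- on that scale. A gene or probe is called where its unadjusted limma p was under 0.05. The study used that p threshold, and its lists of up- and down-regulated genes also required a minimum fold change, which was not applied here. The p values printed are adjusted over all probes tested and rest on the spread between these 3 samples per population, which the study describes as independent and whose source animals the labels do not give. Since bulk RNA was measured, fewer cells of a type and less RNA per cell cannot be told apart.

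**Figure D1:**
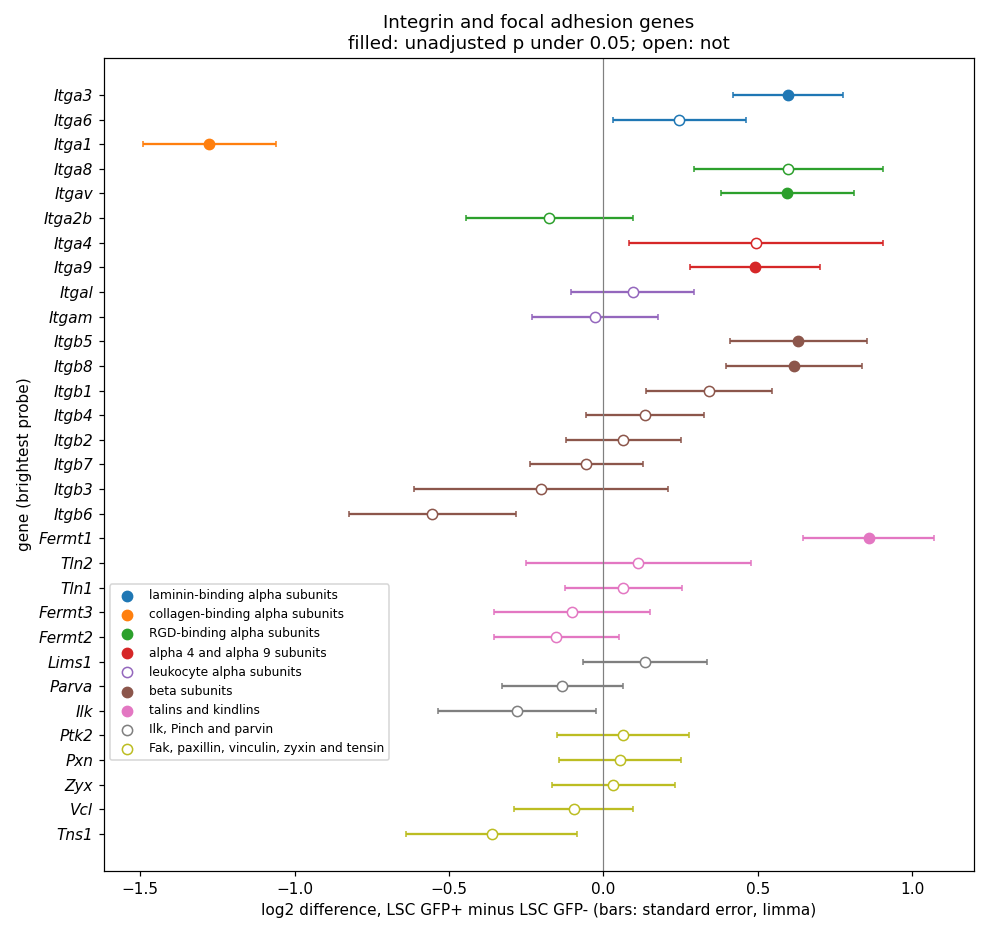
Log2 difference between LSC GFP+ and LSC GFP- cells (x axis, bars are the standard error from limma) for the 31 tested genes (y axis), coloured by role, with filled points where the unadjusted p was under 0.05. Itga1 stands at -1.28 and Fermt1 at 0.86, and the talins, kindlins 2 and 3 and the other adaptors lie around 0.

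Itga3, the α subunit of the laminin receptor α3β1, was higher in LSC GFP+ cells. Its signals were 0.30, 0.35 and 0.16 in LSC GFP+ replicates 1 to 3 and -0.33, -0.35 and -0.31 in LSC GFP- replicates 1 to 3. The LSC GFP- samples lay within a narrow band and the populations did not overlap, with a difference of 0.60 ± 0.18 (SE, n = 3 per population, adjusted p = 0.350), or 1.51-fold. The study names Itga3 among the genes higher in these cells, so this value describes the same samples again. Its probe lies at chr11:94906334-94906393 on the minus strand of mm9.
Itga6, by which both populations were sorted, gave 3.72, 3.87 and 3.42 in LSC GFP+ and 3.34, 3.67 and 3.26 in LSC GFP- replicates. The ranges overlapped, and the difference was 0.25 ± 0.22 (SE, adjusted p = 0.975). Itgb4, the β partner of α6 in hemidesmosomes, differed by 0.13 ± 0.19 (SE, adjusted p = 0.996), with 1.26 to 1.41 in LSC GFP+ and 1.06 to 1.38 in LSC GFP- samples. Neither subunit of α6β4 passed the test. Itga7, the α subunit of a laminin receptor best known in muscle, was well above background on 1 array and was not tested.

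Itga1, which pairs with β1 to bind collagen, was the member with the smallest p. Its brightest probe gave -3.69, -4.07 and -4.24 in LSC GFP+ and -2.60, -2.81 and -2.77 in LSC GFP- replicates. Every LSC GFP+ sample lay below every LSC GFP- sample, with a difference of -1.28 ± 0.21 (SE, adjusted p = 0.107), or 2.42-fold lower. With normexp background correction the difference of this dim probe was -0.50, and it was still called. A second Itga1 probe was marked above background on 2 LSC GFP- arrays and on none of the LSC GFP+ arrays. Its signals were -4.39, -5.35 and -4.74 in LSC GFP+ and -3.74, -3.84 and -4.38 in LSC GFP- replicates. They lay close to background, and this probe was not tested.
Smooth muscle and most stromal markers were lower in LSC GFP+ cells, as Itga1 was. The summed level of 9 smooth muscle genes, on a linear scale with the 75th percentile as 1, was 7.53 to 11.2 in LSC GFP+ and 21.3 to 41.5 in LSC GFP- samples, and 7 of its 8 tested genes were lower. The stromal sum was 17.4 to 23.8 against 20.1 to 56.1, with 6 of 8 tested genes lower and 1 higher. The higher gene, Dcn, held most of the LSC GFP+ sum, at means of 3.70 in LSC GFP+ and 2.51 in LSC GFP-. It differed by 1.19 ± 0.27 (SE, adjusted p = 0.202 in limma), without overlap. Of the 6 lower genes, Pdgfra and Twist1 entered the test through LSC GFP- cells alone. They were above background on 2 and 0 of the LSC GFP+ arrays. Among smooth muscle markers Lmod1 was not above background on any array. The glia and neuron sum overlapped, at 82.3 to 134 against 87.0 to 157. Elavl4, at means of 6.66 in LSC GFP+ and 6.76 in LSC GFP-, held most of it and differed by -0.10. All 6 tested genes of that list had negative differences, with a median of -0.98, and 0 were called, or 4 with the replicate block. The part of any of these cells in the Itga1 difference was not tested.
The other collagen-binding α subunits, Itga2, Itga10 and Itga11, were above background on at most 2 of 3 arrays in either population and were not tested.

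Itgav, the α subunit shared by β1, β3, β5, β6 and β8, was higher in LSC GFP+ cells. Its brightest probe, at chr2:83646133-83646192 on the plus strand of mm9, gave 1.29, 1.45 and 1.06 in LSC GFP+ and 0.89, 0.70 and 0.43 in LSC GFP- replicates. The populations did not overlap, with a difference of 0.60 ± 0.21 (SE, adjusted p = 0.482). A second probe differed by 0.49 ± 0.24 (SE, adjusted p = 0.721) and overlapped, and was called when the replicate number was fitted as a block. The brightest probe was not called without LSC GFP+ replicate 2, where the difference was 0.51, nor without replicate 2 (0.61) or 3 (0.47) of LSC GFP-.
Among the β partners of αv, Itgb5 and Itgb8 were higher in LSC GFP+ cells as well. Itgb5, whose product with αv binds vitronectin, gave -0.48, -0.27 and -0.64 in LSC GFP+ and -1.04, -0.85 and -1.39 in LSC GFP- replicates. The difference of 0.63 ± 0.22 (SE, adjusted p = 0.466) was without overlap. Itgb8, which with αv activates latent TGF-β, gave -1.68, -1.54 and -1.61 in LSC GFP+ and -2.49, -2.32 and -1.87 in LSC GFP- replicates.
The LSC GFP+ values of Itgb8 were close together and the LSC GFP- values spread more widely, with a difference of 0.62 ± 0.22 (SE, adjusted p = 0.480). Without LSC GFP+ replicate 2 neither was called, at 0.54 for Itgb5 and 0.58 for Itgb8, nor was Itgb5 without LSC GFP- replicate 3 (0.48). Itgb8 was also not called without replicate 1 (0.49) or 2 (0.57) of LSC GFP- and without replicate 3 of LSC GFP+ (0.62), and with normexp its difference was 0.35 and called. The Itgb5 probe lies at chr16:33949123-33949182 (plus strand) and the Itgb8 probe at chr12:120401278-120401337 (minus strand) of mm9. Itgb6, the epithelial subunit that with αv also activates latent TGF-β, had lower values in LSC GFP+ cells and was not called. It gave -0.91, -0.86 and -0.09 in LSC GFP+ and -0.19, -0.17 and 0.16 in LSC GFP- replicates.
LSC GFP+ replicate 3 lay apart from replicates 1 and 2 and inside the LSC GFP- range. The Itgb6 difference was -0.55 ± 0.27 (SE, adjusted p = 0.721), and it was called once the replicate number was fitted as a block. Within the replicate numbers the differences were -0.72, -0.69 and -0.25. A dimmer Itgb6 probe was above background on 1 LSC GFP+ array and on all LSC GFP- arrays, so it entered the test through LSC GFP- cells alone, and it was not called.
The difference between the differences of Itgb6 and of Itgb5 or Itgb8 was not tested.

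Itgb3, the β subunit of platelet αIIbβ3 and of αvβ3, depended on the probe. The brightest probe, with 2.61, 2.57 and 1.53 in LSC GFP+ and 2.48, 3.08 and 1.75 in LSC GFP- replicates, overlapped and differed by -0.20 ± 0.41 (SE, adjusted p = 0.996). Both populations were lowest in replicate 3. The dimmer probe gave -2.42, -3.11 and -3.03 in LSC GFP+ and -0.80, -2.02 and -2.37 in LSC GFP- replicates and differed by -1.12 ± 0.41 (SE, adjusted p = 0.497).
Its highest value was in LSC GFP- replicate 1, the sample with the highest stromal and smooth muscle sums. Without that sample the difference was -0.66, without LSC GFP+ replicate 2 it was -0.995 and without LSC GFP+ replicate 3 it was -1.03, and the probe was not called in any of these fits or by the methods' t-test. With normexp it differed by -0.69 and was called. Of the platelet and megakaryocyte list, Pf4, Ppbp, Gp5 and Gp9 were not above background on any array, while Gp1bb was above it on all 6 and differed by -0.04. The endothelial sum, whose cells the sort was to remove by CD31, was 6.13 to 6.96 against 6.26 to 7.46. Of its 5 tested genes 1, Vwf, was called, with a difference of -0.82 without overlap (adjusted p = 0.297 in limma), and Kdr, at means of 2.52 and 2.50, held most of the sum. Cdh5 and Tie1 were above background on 1 LSC GFP- array each and on no LSC GFP+ array. Pecam1, which encodes CD31, was above it on 2 LSC GFP+ and 3 LSC GFP- arrays. Cdh5, Tie1, Pecam1, Emcn and Esam were highest in LSC GFP- replicate 3, at -2.24, -2.47, -1.07, -3.18 and -1.11, while Vwf, Kdr and Tek were not. The part of these cells in the Itgb3 values was not tested. Itga2b, the α subunit of the platelet integrin, differed by -0.18 ± 0.27 (SE, adjusted p = 0.996).
Itgb1, the partner of most α subunits, differed by 0.34 ± 0.20 (SE, adjusted p = 0.831), with 2.89 to 3.23 in LSC GFP+ and 2.64 to 2.98 in LSC GFP- samples that overlapped at 1 sample. Its second probe gave 1.90, 1.86 and 2.01 against 1.43, 1.60 and 1.61, without overlap, a difference of 0.37 ± 0.18 (SE, adjusted p = 0.712), and it was called with the block. Itgb2 and Itgb7, the leukocyte β subunits, differed by 0.07 and -0.05 and were not called.

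**Figure D2:**
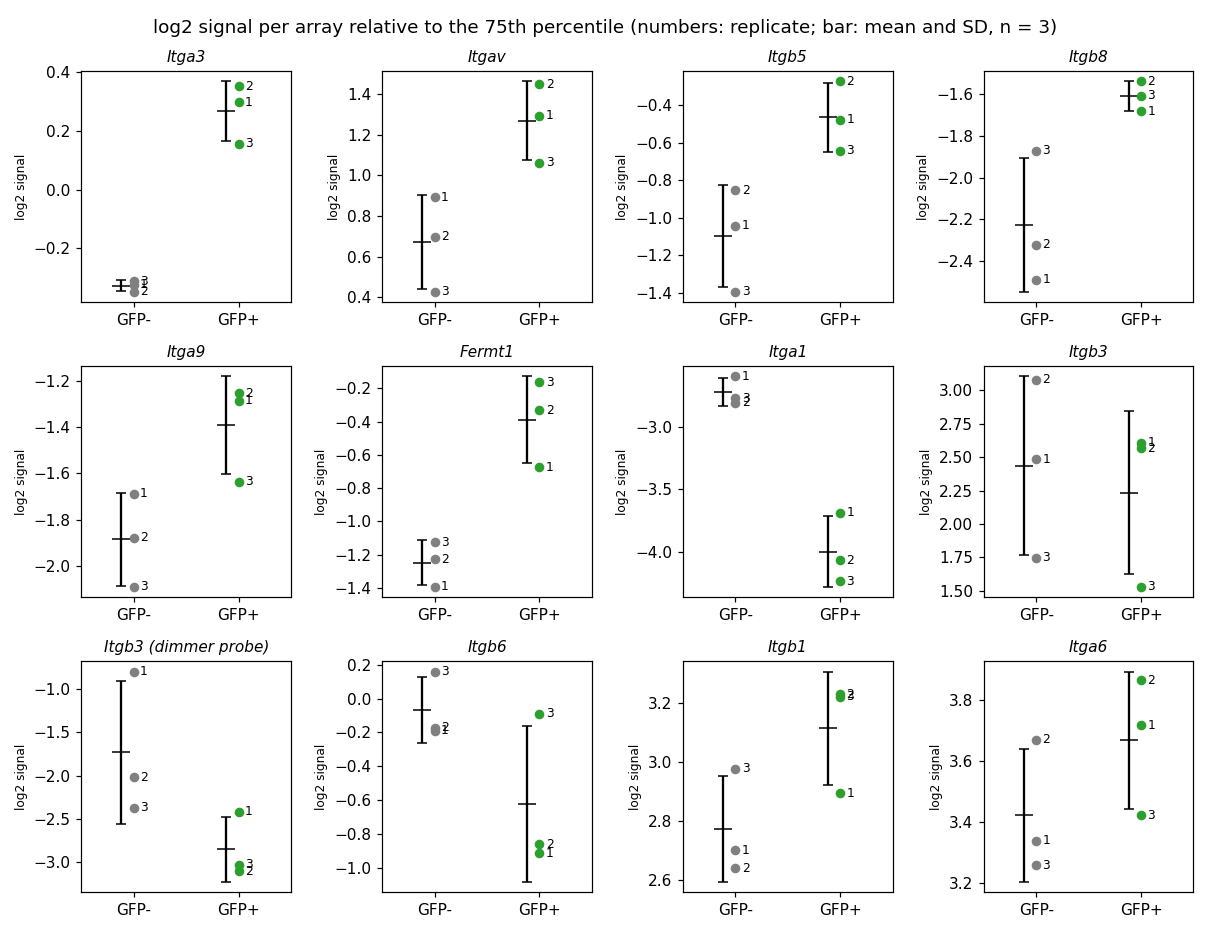
Log2 signal relative to the array's 75th percentile (y axis) of 11 genes in LSC GFP- (grey) and LSC GFP+ (green) samples, with the replicate number beside each point and bars for the mean and SD of 3 samples. Itga3, Itgav, Itgb5, Itgb8, Itga9, Fermt1 and Itga1 do not overlap between the populations, while Itgb6, Itgb1, Itga6 and the brightest Itgb3 probe do, and the y axes differ between panels.

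Itga9, which with β1 binds tenascin C and osteopontin, was at the edge of the threshold. It gave -1.29, -1.26 and -1.64 in LSC GFP+ and -1.69, -1.88 and -2.09 in LSC GFP- replicates. The lowest LSC GFP+ value and the highest LSC GFP- value were close, and the difference was 0.49 ± 0.21 (SE, adjusted p = 0.627). It was not called in 9 of 18 settings, among them normexp (0.33) and the fits without any array other than LSC GFP+ replicate 3 (0.39 to 0.59).
Itga4, which pairs with β1 to bind Vcam1 and fibronectin, gave -2.62, -2.57 and -3.71 in LSC GFP+ and -3.18, -3.01 and -4.20 in LSC GFP- replicates. Replicate 3 was lowest in both populations. The difference was 0.49 ± 0.41 (SE, adjusted p = 0.962), and the differences within replicate numbers were 0.56, 0.44 and 0.49, and the blocked fit called it. Without LSC GFP- replicate 3 the difference was 0.13, without LSC GFP+ replicate 3 it was 0.87 and called, and with normexp it was 0.12.
Itga8, the receptor subunit for nephronectin, differed by 0.60 ± 0.31 (SE, adjusted p = 0.745), with 1 LSC GFP- sample at -1.85 and the others between -1.06 and -0.86. Without that sample, LSC GFP- replicate 2, the difference was 0.30, and with normexp it was 0.39. Itga5, the fibronectin receptor subunit, was above background on 2 of 3 arrays of each population and was not tested.

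The leukocyte α subunits gave no call. Itgal, of the lymphocyte integrin LFA-1, differed by 0.09 ± 0.20 (SE, adjusted p = 0.996), and the brightest Itgam probe by -0.03 ± 0.20 (SE, adjusted p = 0.996). That Itgam probe holds a dinucleotide repeat of 20 bases, AC or GT, and its means were 7.94 in LSC GFP+ and 7.97 in LSC GFP-. The other Itgam probes were far dimmer, at means of -1.37 and -2.93 in LSC GFP+ and -1.22 and -2.94 in LSC GFP-. They differed by -0.15 and 0.01. Whether the signal of the repeat probe comes from Itgam was not tested. Itgad and Itgax were not above background on any array, and Itgae on 1 array of each population. Of 10 leukocyte markers, whose cells the sort was to remove by CD45, Cd53 and Laptm5 were not above background on any array. On all 6 arrays 6 of the 10 were above it, among them Ptprc, which encodes CD45, at means of -1.48 in LSC GFP+ and -1.43 in LSC GFP-. None of the 7 tested was called, and the sum was 25.6 to 31.3 in LSC GFP+ and 26.1 to 27.0 in LSC GFP- samples. Csf1r, at means of 4.69 in LSC GFP+ and 4.62 in LSC GFP-, held most of the sum.

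Fermt1, which encodes kindlin-1, the kindlin of epithelia, was the adaptor that was called. It gave -0.68, -0.33 and -0.16 in LSC GFP+ and -1.39, -1.23 and -1.12 in LSC GFP- replicates, from a probe at chr2:132730394-132730453 on the minus strand of mm9. The populations did not overlap, with a difference of 0.86 ± 0.21 (SE, adjusted p = 0.234), or 1.81-fold higher in LSC GFP+ cells.
Fermt2, the broadly expressed kindlin-2, differed by -0.15 ± 0.20 (SE, adjusted p = 0.996), with a second probe at -0.33. Fermt3, the kindlin of blood cells, differed by -0.10 ± 0.25 (SE, adjusted p = 0.996) and was above background on 2 LSC GFP+ arrays. The talins Tln1 and Tln2, which activate the β tail with the kindlins, differed by 0.06 and 0.11, and the SE of Tln2 was 0.36.
No talin and no other kindlin was called. Whether Fermt1 differed from Fermt2 in its change was not tested.

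Ilk, Pinch and parvin form a complex beneath the β tail. Ilk, the central pseudokinase, gave 1.22, 1.48 and 1.91 in LSC GFP+ and 1.72, 1.58 and 2.15 in LSC GFP- replicates, a difference of -0.28 ± 0.26 (SE, adjusted p = 0.983). Lims1, which encodes Pinch-1, differed by 0.14 and Parva, α-parvin, by -0.13. Lims2 and Parvb were not tested.
Among the signalling and actin-binding adaptors, Ptk2, the kinase Fak, differed by 0.06 ± 0.22 (SE, adjusted p = 0.996) and Pxn, the scaffold paxillin, by 0.05 ± 0.20 (SE, adjusted p = 0.996). Vcl, vinculin, differed by -0.10 and Zyx, the stress-fibre protein zyxin, by 0.03. Tns1, the actin-linking tensin, differed by -0.36 ± 0.28 (SE, adjusted p = 0.935), with 2.24 to 2.50 in LSC GFP+ and 2.42 to 3.34 in LSC GFP- samples, the highest in LSC GFP- replicate 1, and by -0.0757 without that sample. None of these 8 genes was called.

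**Figure D3:**
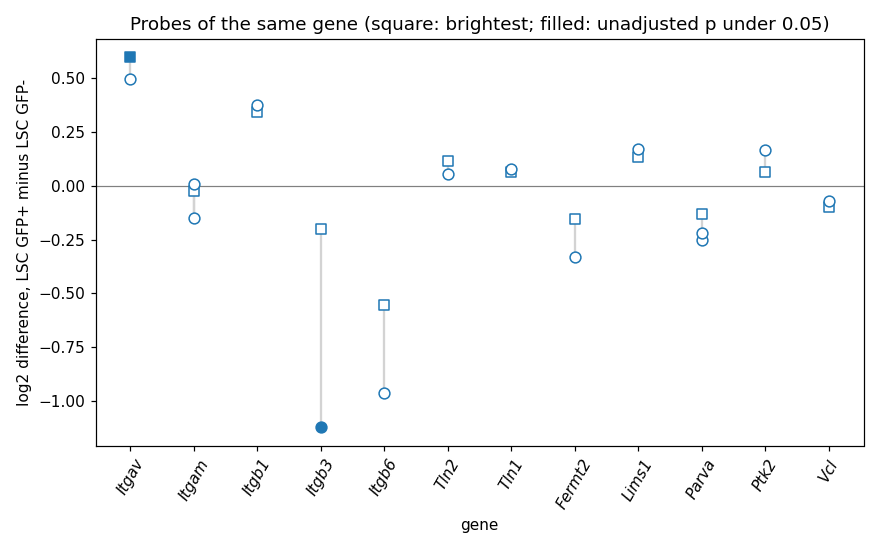
Log2 difference (y axis) of each tested probe for the 12 genes with 2 or more tested probes (x axis), with a square for the brightest probe and filled symbols for an unadjusted p under 0.05. The probes of 11 genes share their sign, those of Itgam do not, and the Itgb3 probes lie farthest apart, at -0.20 and -1.12.

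Samples with the same replicate number deviated together, so differences within each number were also read. Itga1 was lower in LSC GFP+ cells in all 3 numbers, with differences of -1.09, -1.27 and -1.47. Fermt1 differed by 0.72, 0.90 and 0.96, and Itgb5 by 0.56, 0.58 and 0.75. With the number as a block, 9 member probes were called higher and 4 lower, where 14.8% of all probes were called (6.74% higher and 8.07% lower), and the added calls came from Itgav, Itgb1, Itga4 and Itgb6, the dimmer Itgb6 probe among them. By gene the block called 7 higher and 2 lower, where it called 14.2% of all genes (6.52% higher and 7.72% lower).

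**Figure D4:**
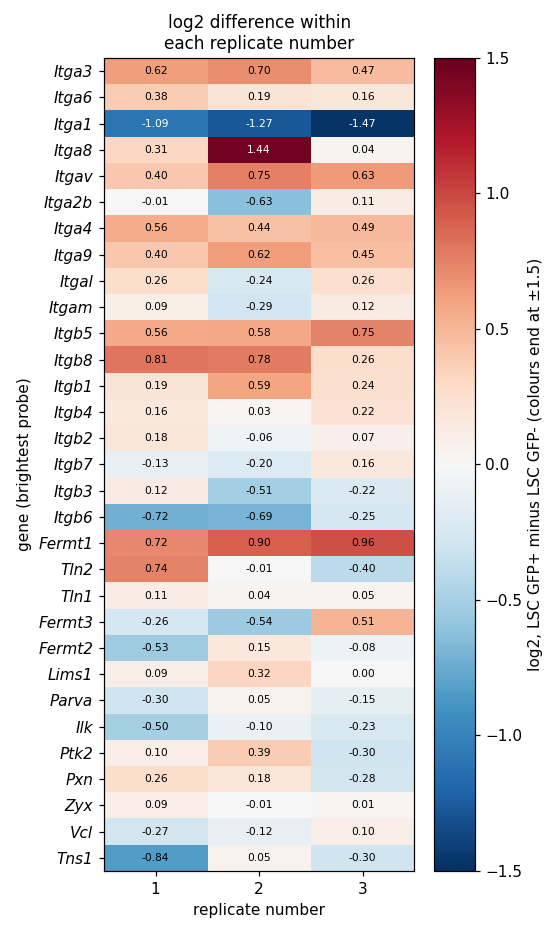
Log2 difference between LSC GFP+ and LSC GFP- samples of the same replicate number (x axis) for the 31 tested genes at their brightest probe (y axis), printed in each cell and coloured from blue (lower in LSC GFP+) to red (higher), with colours ending at 1.5 either way. The 7 genes called higher with the block are positive in all 3 columns, as are Itga6, Itga8, Itgb1, Itgb4, Tln1 and Lims1 (by 0.0029 in replicate 3), and Itga1, Itgb6 and Ilk are negative in all 3, while Tln2 and Fermt3 change sign between columns.

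Most basal epithelial markers were higher in LSC GFP+ cells. Of 9 basal markers 6 of the 8 tested were called higher in LSC GFP+ cells and none lower. The sum of the list was 214 to 233 against 157 to 171. Trp63, at means of 6.71 in LSC GFP+ and 6.60 in LSC GFP-, held the largest part of it. It differed by 0.11 ± 0.18 (SE, adjusted p = 0.996) and was not called. Dsg3 was not above background on any array. The luminal sum overlapped, at 208 to 290 against 217 to 302. The part of the basal marker difference in the values of Itga3, Itgav, Itgb5, Itgb8 and Fermt1 was not tested.

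The partners of integrins in the matrix were split in direction. Of 40 integrin ligand genes 33 were tested, 6 were called higher and 11 lower where 7.67% of all genes were called, and the median difference was -0.03. Lama3 and Lamb3, chains of the epithelial laminin that α3β1 and α6β4 bind, were called higher, by 0.71 ± 0.19 (SE, adjusted p = 0.269) and 0.88 ± 0.20 (SE, adjusted p = 0.190). The signals of Lamb3 were 1.89, 2.32 and 2.10 against 1.14, 1.23 and 1.30.
Basement membrane collagens Col4a1 and Col4a2 were higher by 0.91 and 0.96 and Thbs1, thrombospondin-1, by 1.34. The interstitial collagens Col1a1, Col1a2 and Col3a1 were lower, with differences of -2.18, -2.15 and -1.97, and the nidogens Nid2 and Nid1, which link laminin to collagen IV, with -1.95 and -1.93. Nid2 was above background on 2 of the 3 LSC GFP+ arrays. Lama2, the laminin chain of muscle and nerve, differed by -1.28 and Vcam1, a ligand of α4β1, by -0.98. Npnt, which encodes nephronectin, was also called lower, with a difference of -0.42 ± 0.18 (SE, adjusted p = 0.626), while Itga8 was not called. Col1a1, Col1a2 and Col3a1 belong to the stromal marker list, so their direction and its sum are not separate.
Of the 3 hemidesmosome partners of α6β4, Col17a1, the transmembrane collagen, was higher by 1.09 ± 0.24 (SE, adjusted p = 0.181). It gave 2.66, 2.69 and 2.15 against 1.68, 1.38 and 1.19, without overlap. Plec and Dst, the plakins of the hemidesmosome, were not called.

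Of 71 other adhesion genes 68 were tested, 5 were higher and 7 lower, or 17.6% called beside 7.67% of all genes, with a median of -0.00059. Tns4, a tensin that lacks the actin-binding part, gave 0.10, 0.24 and -0.03 against -1.15, -1.27 and -1.02, a difference of 1.25 ± 0.19 (SE, adjusted p = 0.0984). Tns3 was higher by 0.85 ± 0.20 (SE, adjusted p = 0.205) and Kank1, which binds talin, by 0.79 ± 0.20 (SE, adjusted p = 0.261).
Tns3 and Tns4 were thus called higher while Tns1 was not called, and the difference between them was not tested. Tgfb1i1, the paxillin relative Hic-5, was called lower, with a difference of -1.52. Cav1, Sorbs2, Flnc and Rhoc were also lower, with -0.94, -0.92, -0.87 and -0.86. Dlc1, a tumour suppressor of focal adhesions, was called lower as well, but it was above background on 1 of the 3 LSC GFP+ arrays and entered the test through LSC GFP- cells alone. Dlc1 and Tgfb1i1 were highest in LSC GFP- replicate 1, the sample with the highest smooth muscle sum, and the part of smooth muscle in these differences was not tested.

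**Figure D5:**
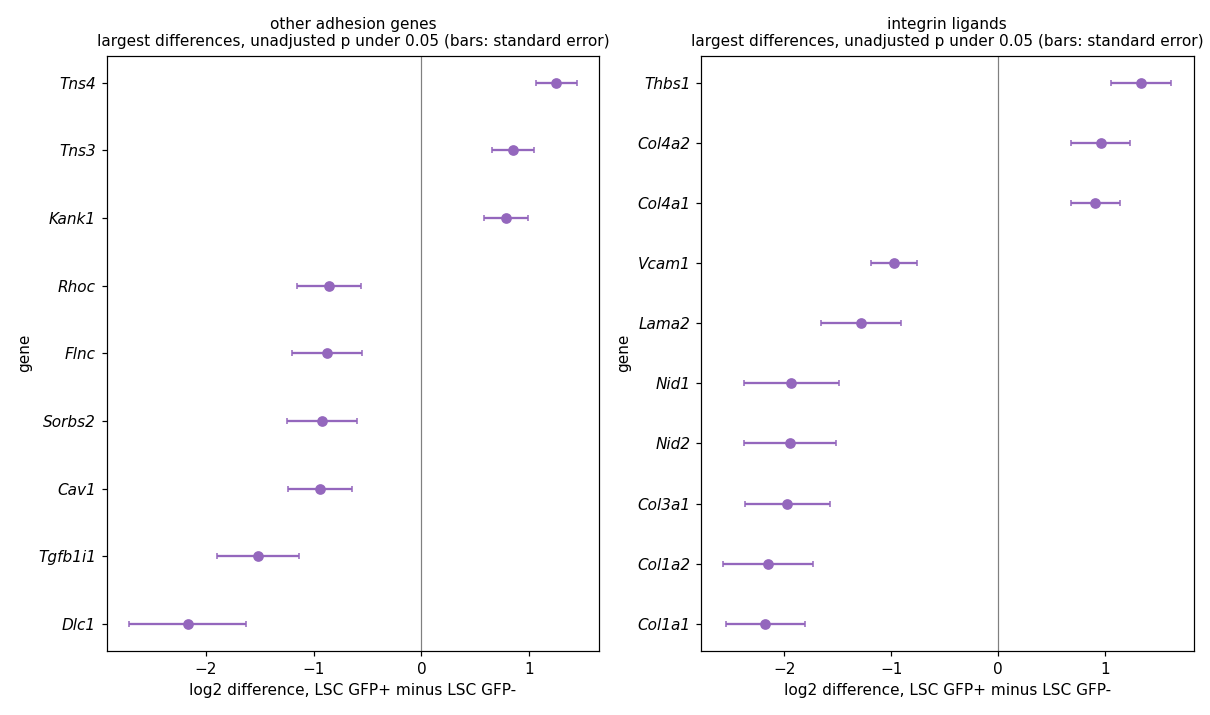
Log2 differences, LSC GFP+ minus LSC GFP- (x axes, bars are the standard error), of the 10 called genes with the largest absolute difference among other adhesion genes (left, 1 of them not shown) and integrin ligands (right). The ligands run from -2.18 for Col1a1 to 1.34 for Thbs1, and among the adhesion genes Tns4 stands at 1.25 and Tgfb1i1 at -1.52; Dlc1 and Nid2 were not above background on every LSC GFP+ array.

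Promoter sequence was read for the member genes, as 250 bases before the start given by RefSeq for GRCm38.p6. A start was listed for 28 of the 41 genes. The GC box GGGCGG, on either strand, was found in 15 of their 33 listed starts, or 45.5%, and in 32.7% of all 32851 promoters of this length in the table, and a match is a description of the letters. Of the 6 genes called higher, Fermt1, Itga3 and Itgb5 held it, and Itgav, Itga9 and Itgb8 did not; the Itga1 promoter did not either. The promoters of Fermt1, Itga3 (the start with 3 matches), Itgb5 and Itga1 are given with the GC boxes in capitals, at chr2:132946037-132946286 (minus), chr11:95076715-95076964 (minus), chr16:33829415-33829664 (plus) and chr13:115101965-115102214 (minus):
Fermt1 promoter: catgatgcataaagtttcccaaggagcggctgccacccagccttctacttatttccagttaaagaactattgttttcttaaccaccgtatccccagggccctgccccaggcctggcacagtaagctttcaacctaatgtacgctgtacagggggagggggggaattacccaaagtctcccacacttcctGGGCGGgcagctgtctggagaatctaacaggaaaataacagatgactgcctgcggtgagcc
Itga3 promoter: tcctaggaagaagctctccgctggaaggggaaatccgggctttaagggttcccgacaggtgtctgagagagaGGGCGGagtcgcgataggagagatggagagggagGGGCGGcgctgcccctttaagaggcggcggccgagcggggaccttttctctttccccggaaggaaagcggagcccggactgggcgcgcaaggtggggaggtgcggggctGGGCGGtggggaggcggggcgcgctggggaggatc
Itgb5 promoter: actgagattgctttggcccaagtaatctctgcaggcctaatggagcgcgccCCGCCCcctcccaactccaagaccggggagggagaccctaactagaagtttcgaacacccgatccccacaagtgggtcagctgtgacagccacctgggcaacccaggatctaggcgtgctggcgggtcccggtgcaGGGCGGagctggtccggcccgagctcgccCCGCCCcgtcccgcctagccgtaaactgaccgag
Itga1 promoter: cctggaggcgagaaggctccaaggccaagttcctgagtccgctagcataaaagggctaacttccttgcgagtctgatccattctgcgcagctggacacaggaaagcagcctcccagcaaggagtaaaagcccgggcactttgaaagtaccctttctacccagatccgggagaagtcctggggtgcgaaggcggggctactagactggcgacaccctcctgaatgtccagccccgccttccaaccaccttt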

How the data were processed

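Per the file headers, the deposited intensity values are signals of Agilent Feature Extraction 11.0.1.1 (the submitters' notes name 10.7.3.1), background-subtracted, with a spatial trend removed and not normalized between arrays. The authors sorted the cells, amplified their RNA and labelled the cDNA with Cy3. All 6 arrays came from 1 slide and 1 scan, so no batch could be compared. Well above background were 36651 to 42123 probes per array, and no spot was saturated. The number of arrays limits the precision, and an exact permutation test of 3 against 3 cannot go below 0.1.

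Each signal was taken as log2, relative to the 75th percentile of its array. Outlier spots were left out and spots of a probe averaged. A probe entered the fit if the scanner software marked it well above background throughout one population or both. R 4.3.3 and limma 3.58.1 (lmFit, eBayes) gave two-sided p values, adjusted by Benjamini-Hochberg over 37005 probes. The procedure was tested on simulated data with independent samples and planted changes larger than that of any member. Changes of the size reported here and paired samples were not simulated. A gene stands by the probe with the highest mean over the 6 arrays, and member genes were named with that probe. From the other lists, the text names genes past an unadjusted p of 0.05 without overlap, the 10 with the largest difference per list, and 1 called adhesion gene is not reported here. Lama3, Lamb3, Plec, Dst, Vwf, Kdr, Gp1bb and Pdgfra fall outside this rule and were chosen after their values were seen. So were Dcn, Elavl4, Ptprc, Csf1r, Pecam1, Emcn, Esam, Tek, Npnt and Trp63. The members and lists were chosen with earlier results of these data known. Of 63 member probes 57 matched a RefSeq accession in a table of GRCm38.p6, where no symbol differed, and the rest keep the array's name. Probe positions are those of mm9 in the array design.

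The replicate numbers in the labels were taken to pair the samples, because same-numbered samples deviated together from their population means with correlations of 0.43, 0.28 and 0.67. Samples of unlike number gave -0.55 to 0.22, the highest for LSC GFP+ replicate 1 with LSC GFP- replicate 2, close to the 0.28 of replicate 2. The labels do not state the pairing. Alternatives were normexp background correction (offset 50), quantile and median scaling, the deposited rounded table, the methods' t-test, an intensity trend, 3 other filters for dim probes, the replicate block, a mean per gene over its tested probes, and leaving out each array.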

Additional observations from a re-analysis of the deposited data

How the results depend on the processing

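Fermt1, Itga1 and Itga3 stayed called in all 18 settings, with ranges of 0.69 to 1.002, -1.43 to -0.50 and 0.53 to 0.67. Itga9 lost its call in 9 settings, Itgb8 in 4, Itgav in 3 and Itgb5 in 2, those of Itgb8, Itgav and Itgb5 all with an array left out. The count of member probes lower in LSC GFP+ cells was 1 with the methods' t-test and 4 with the replicate block, against 2. Itga4 and Itgb6 passed only with the replicate block or without LSC GFP+ replicate 3, and the block changed no other gene's call at its brightest probe. With each array left out, the count of higher member probes ranged from 2 (without LSC GFP+ replicate 2) to 7 and was 3 without LSC GFP- replicate 3, and that of lower ones from 1 (without LSC GFP- replicate 1 or LSC GFP+ replicate 2) to 3. Itga8 passed without LSC GFP- replicate 1 or LSC GFP+ replicate 3. No member passed adjustment in any setting. Differences near 0 changed sign: Itgb7 was 0.0141 under median scaling, Itgam 0.0021 under normexp and 0.0424 under median scaling, and Fermt3 0.0143 under quantile normalization. With arrays left out, Ptk2 ran from -0.0886 to 0.16, Pxn from -0.0114 to 0.17, Vcl from -0.19 to 0.0014, Zyx from -0.0520 to 0.14, Itgb3 from -0.55 to 0.15, Itgb7 from -0.11 to 0.0026, Itgam from -0.14 to 0.0788, Fermt3 from -0.31 to 0.10 and Tln2 from -0.26 to 0.49. The cause of these shifts was not tested. Genes close to background, such as Itga2 and Itga10, could not be compared.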
